A study of Mus musculus with 12 samples.

Results

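FTY720 given alone was compared with no treatment in T cells from MC38 tumours 3 days after the node was photoconverted. MC38 is a mouse colon carcinoma cell line, and the tumours grew in mice carrying 1 copy of Kaede (labelled Kaedehet), a fluorescent protein that turns from green to red under violet light. On day 14 the tumour-draining lymph node was illuminated. Red therefore marks T cells of the tumour that were inside the node on day 14, and green those not converted there. The FTY720 group received 10 µg of FTY720 into the peritoneum on day 15 and no radiation, the untreated group (NT) received neither, and both were harvested on day 17, labelled day 3. RT mice had 12 Gy of tumour radiation on day 14, and RT+FTY720 mice had both. Each condition had 2 replicates of 4 pooled tumours, so the unit of every comparison is the pool, and p-values reflect only how much these pools vary, which may be technical. Some T cell receptor sequences recurred in both NT replicates, as given below. Whether replicates shared tumours was not tested. Live CD90.2+ cells were sorted by Kaede colour after magnetic enrichment for CD4 and CD8 cells, so the ratio of red to green cells is set by the sort.

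Cells were chosen by their hashtag, an antibody carrying a short DNA barcode that names condition and colour: the top hashtag had at least 20 unique molecules (UMIs) and 3 times the next, and a cell needed 500 or more detected genes and no more than 10% of its UMIs from mitochondrial genes. This gave 142 FTY720 cells (39 in replicate 1 and 103 in replicate 2) and 854 NT cells (267 and 587), 996 of the 2740 cells kept in the series. The barcodes are shown because the same 15 bases stand for different groups in different wells, and they alone assign a cell. In replicate 1 they were:
FTY720 red: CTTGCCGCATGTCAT
FTY720 green: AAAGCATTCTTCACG
NT red: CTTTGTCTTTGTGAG
NT green: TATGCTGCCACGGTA
In replicate 2 each pair of barcodes carried the opposite colour by the names in the deposited matrices, which the labels' tag numbers do not show. The matrix names were used, and every split by colour rests on them. With colours by the tag numbers, the naive share among red cells differed by 7.65 points in place of 5.74. By the matrix names, some NT receptor sequences had opposite colours in the 2 replicates, as given below.

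The 2 groups never shared a 10x well. NT day 3 lay in wells 1 and 3 with the day 1 pools, and FTY720 lay in wells 2 and 4 with RT and RT+FTY720 at day 3, so treatment and well cannot be told apart in FTY720 against NT. RT+FTY720 against RT lies within wells and shares no pool with it, and its values are given beside the results. Pool totals were 964208 and 2393897 UMIs in FTY720 and 5619041 and 12460952 in NT. Median UMIs per cell were alike, at 21552 and 19282 against 19595 and 19624, as were median mitochondrial shares (1.74% and 1.61% against 1.59% and 1.64%). No cell barcode was shared between wells. Markers of myeloid cells summed to 8.30 to 16.3 counts scaled to the same library total (CPM) in FTY720 and 16.6 to 18.9 in NT, B cell markers to 88.1 to 131 against 82.4 to 88.9, and NK markers to 118 to 173 against 125 to 221, with 2 of 8, 3 of 6 and 1 of 6 members at 0 in FTY720. Markers of gamma-delta T cells summed to 0.418 to 2.07 CPM in FTY720 against 5.87 to 11.6 in NT. Dendritic, fibroblast, endothelial and tumour epithelial markers overlapped between the groups. The part of these cells in the results was not tested.

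FTY720 (fingolimod) is phosphorylated in the body and then engages receptors for sphingosine 1-phosphate (S1P), a lipid that is abundant in blood and lymph. Lymphocytes leave a node by following that lipid through the receptor S1PR1, and the drug makes them lose the receptor from their surface, so that naive and central memory T cells stay in nodes. Klf2 drives transcription of S1pr1, while Ccr7 guides T cells into nodes and holds them there.

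No class of T cell differed between the groups beyond what 2 pools a side can show. CD8-like cells were 48.7% and 52.4% of FTY720 pools and 54.3% and 44.6% of NT pools, and the groups overlapped (difference 1.10 percentage points, exact permutation p = 1). Naive CD8-like cells, in clusters marked by Ccr7 and Lef1 among other genes, were 23.1% and 11.7% against 12.7% and 19.1%, with NT inside the FTY720 range (difference 1.46, exact permutation p = 1). Most of these cells lay in a cluster that also carried memory markers, described below. Treg-like cells were higher in both FTY720 pools, at 20.5% and 22.3% against 16.1% and 19.1% (difference 3.83). CD4 conventional-like cells were lower in both, at 7.69% and 12.6% against 14.2% and 15.2% (difference -4.54). Naive CD4-like cells were lower in both, at 0 of 39 (which allows a share of up to 7.69%) and 1 of 103 cells against 4 of 267 and 10 of 587. For these 3 classes the exact permutation p was 0.333, the smallest that 2 pools against 2 can give, and edgeR's quasi-likelihood test on cell counts called none of 6 groups (lowest adjusted p 0.734). The Treg-like difference changed sign, to -1.65 points, when cells were assigned with HTODemux.

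**Figure D1:**
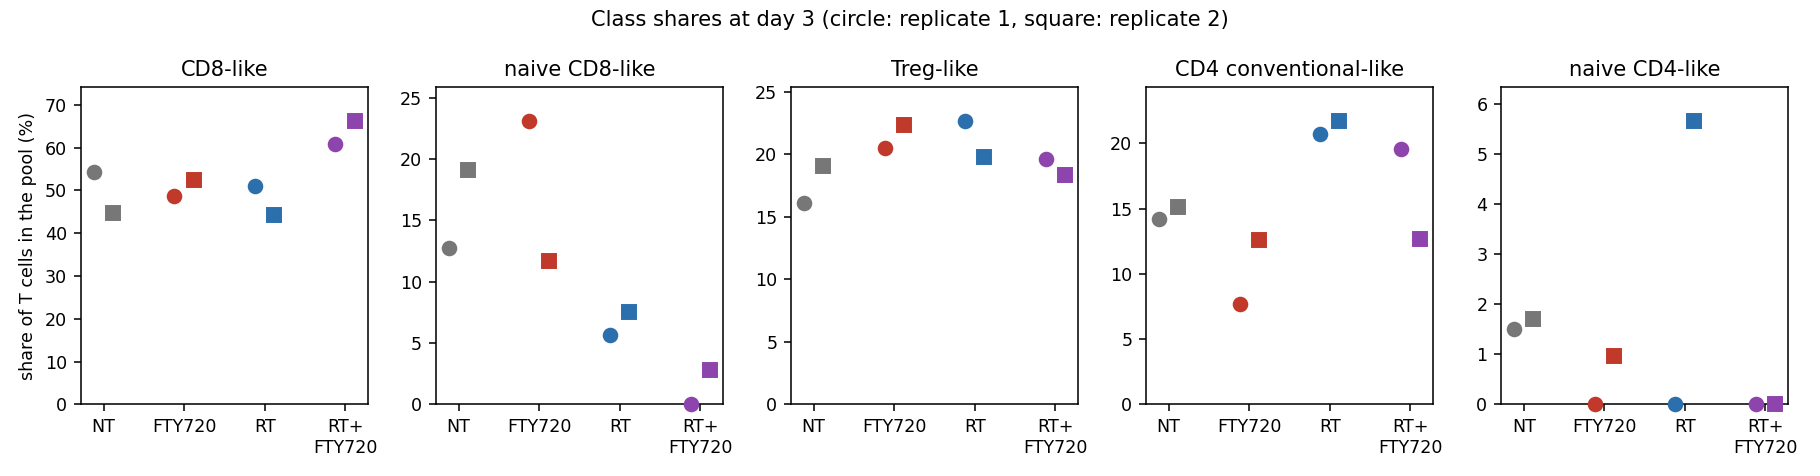
Share of each class among the T cells of each day 3 pool (percent, vertical axis) by condition; circles are replicate 1 and squares replicate 2. FTY720 pools lie above NT for Treg-like cells (20.5% and 22.3% against 16.1% and 19.1%) and below NT for CD4 conventional-like and naive CD4-like cells.

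The cells with the strongest naive and node-homing profile were scarcer in both FTY720 pools. The naive classes came from 2 clusters, which are called by number. Cluster 11 (117 cells, led by Slc28a2b, Igfbp4 and St8sia6) held both CD8 and CD4 cells and had 727 CPM of Ccr7, 1354 of Lef1, 1833 of Klf2 and 369 of S1pr1, with 72.0 of Il2rb and 37.7 of Ccl5. Cluster 2 (274 cells, with Tmem108, Ifngas1 and Tspan9 among its leading genes) had less of the homing genes, at 228 CPM of Ccr7, 416 of Lef1, 613 of Klf2 and 115 of S1pr1. It also carried memory markers, with 2283 CPM of Ly6c2, 966 of Ccl5 and 534 of Il2rb. Il2rb was detected in 96.4% of its cells, Cd44 in 82.5%, Cxcr3 in 78.5% and Eomes in 71.9%, beside Lef1 in 95.6% and Ccr7 in 79.6%. These levels defined the clusters and are a description. Cluster 2 supplied 95.2% of naive CD8-like cells in FTY720 and 85.6% in NT. The class name therefore follows the node-homing markers and covers memory-like cells.

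Cluster 11 was 2.56% and 0.971% of FTY720 cells (1 of 39 and 1 of 103) against 4.87% and 4.26% of NT cells (13 of 267 and 25 of 587). Both FTY720 pools lay below both NT pools, with a difference of -2.80 points. The cluster was singled out among 16 after its shares were seen, so these values are a description. Exact binomial 95% intervals, which cover counting error only, were 0.0649% to 13.5% and 0.0246% to 5.29% in FTY720 and 2.62% to 8.18% and 2.77% to 6.22% in NT. Within wells the same cluster was 0 of 51 and 0 of 71 cells in RT+FTY720, which allows a share of up to 5.88% and 4.23%, against 3.77% and 8.49% in RT. All 4 pools given FTY720 (0% to 2.56%) lay below all 4 day 3 pools not given it (3.77% to 8.49%). No day 1 pool was given the drug, so such a split could be seen at day 3 only. At day 1, without the drug, the cluster averaged 4.12% (SD 1.99) in NT and 3.06% (SD 3.54) in RT, and the RT mean lay below that 3.77%. For CD4 conventional-like cells the day 3 ranges overlapped (7.69% to 19.6% against 14.2% to 21.7%), but within each radiation status the FTY720 pools were lower. With radiation they were 10 of 51 and 9 of 71 cells in RT+FTY720 against 11 of 53 and 23 of 106 in RT. Averaged over both radiation statuses, the difference was -4.81 points for CD4 conventional-like cells and -4.46 for cluster 11. In edgeR's test over 16 clusters, cluster 11 differed by -1.62 ± 1.11 (log2, SE) with an adjusted p of 0.885. Cluster 14 had the lowest p of the 16, at 1.88 ± 0.90 (adjusted p = 0.730).

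Among red cells, which had been in the node, cluster 11 was 4.55% and 1.79% in FTY720 and 6.50% and 6.54% in NT, a difference of -3.35 points. With colours by the labels' tag numbers it was -1.87 points and the groups overlapped. Among green cells it was 0 of 17 and 0 of 47 in FTY720, which allows up to 17.6% and 6.38%, and 3.47% and 1.78% in NT, so the green difference was not detectable at this depth. Cluster 2 did not follow cluster 11. Its share of red cells was 31.8% and 16.1% in FTY720 against 8.94% and 21.6% in NT, overlapping, while its share of green cells was 5.88% and 6.38% against 11.1% and 11.4%, both lower. The 2 naive classes together made up 36.4% and 17.9% of red FTY720 cells against 14.6% and 28.1% of red NT cells, a difference of 5.74 points (exact permutation p = 0.667). Without FTY720 replicate 1 that difference was -3.51 points.

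**Figure D2:**
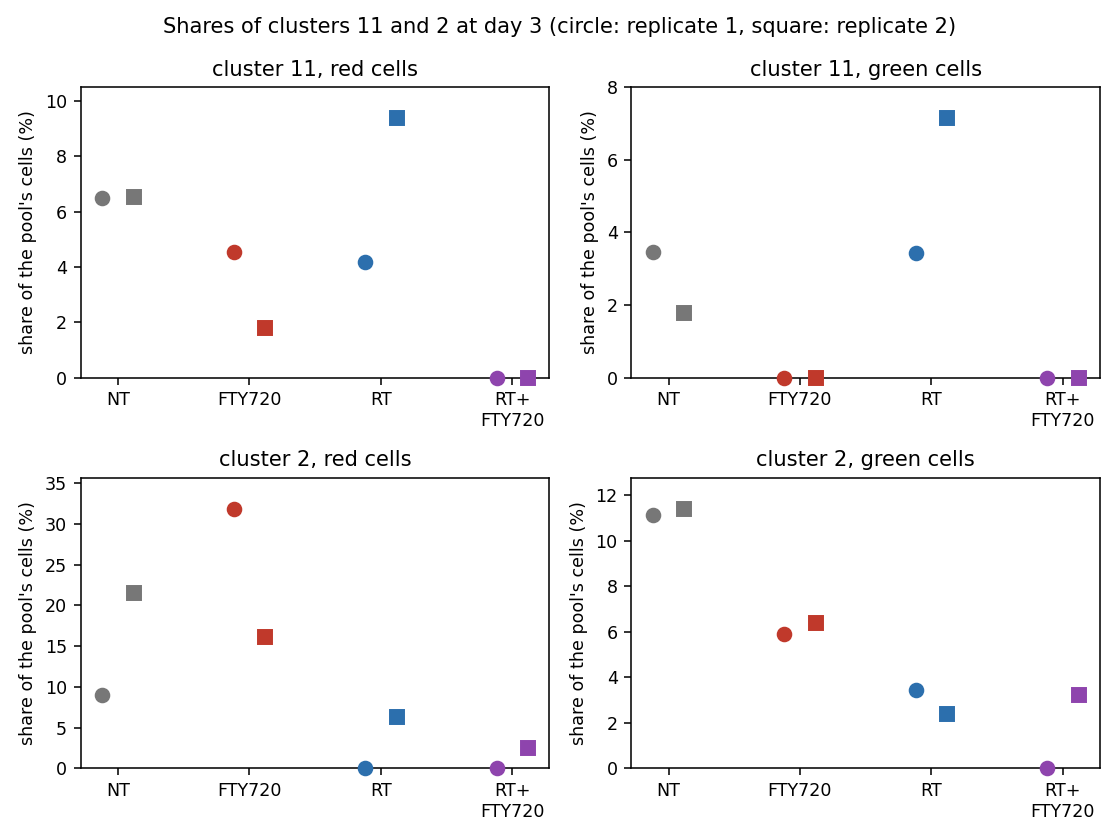
Share of cluster 11 (upper row) and cluster 2 (lower row) among the red (left) and green (right) cells of each day 3 pool, in percent; circles are replicate 1 and squares replicate 2. Cluster 11 is at 0 among green FTY720 cells and among all RT+FTY720 cells, and red cluster 2 cells overlap between FTY720 and NT.

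In naive CD8-like cells Ccr7 and Jun fell. In 9 and 12 FTY720 cells against 34 and 112 NT cells, 4 of 8362 genes were higher (0.0478%) and 3 were lower (0.0359%) at an adjusted p below 0.05, with edgeR's quasi-likelihood test on counts summed per pool. Ccr7, the receptor that guides T cells into nodes, fell from 300.4 and 285 CPM in NT to 129 and 150 in FTY720, a log2 difference of -1.06 ± 0.18 (SE, adjusted p = 0.0388). Jun, a subunit of the AP-1 transcription factor, fell from 403 and 310 CPM to 93.5 and 125, by -1.69 ± 0.25 (adjusted p = 0.0327). In neither gene did the groups overlap. Jun also belongs to the list of genes that respond to tissue dissociation and heat shock. Of its 16 members 1 passed (Jun), and 5 were lower and none higher at an unadjusted p below 0.05. Over all genes 8.62% had such a p in either direction. Of the 16 members, 8 lay below and 3 above both NT pools, against 21.8% and 19.1% of all genes, and the median was -0.35. The part of sample handling in the Jun value was not tested. The third gene that fell belongs to the T cell receptor loci and is not named.

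Other members of the naive and node-homing list lay the same way without passing. Of its 14 measured genes, 1 passed, 10 had an unadjusted p below 0.05 and a lower level (8.62% of all genes had such a p in either direction), none had a higher one, and 11 had both FTY720 pools below both NT pools, against 21.8% of all genes tested. The list's median log2 difference was -0.62, beside -0.000883 for all genes. Klf2 was 253 and 407 CPM against 730 and 741 (log2 -1.15 ± 0.23, adjusted p = 0.0716). S1pr1 was 77.0 and 48.4 against 147 and 129 (-1.14 ± 0.24, adjusted p = 0.0913). For both genes the FTY720 pools lay below the NT pools. Il7r, the receptor for the survival cytokine IL-7, was 88.0 and 125 against 246 and 291 (-1.34 ± 0.27, adjusted p = 0.0716). Lef1 and Tcf7, transcription factors of naive T cells, differed by -0.74 ± 0.19 and -0.49 ± 0.17. Igfbp4 and Dapl1 went the other way, at 0.67 ± 0.43 and 0.18 ± 0.42, with overlapping pools.

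The 2 clusters inside the class were unequally mixed, and these values stand beside the homing genes. Cluster 11 supplied 1 of 9 and 0 of 12 naive CD8-like cells in FTY720, against 7 of 34 and 14 of 112 in NT. With that mixed cluster left out, so that cluster 2 alone was compared, Ccr7 differed by -0.97, Klf2 by -1.02 and S1pr1 by -1.20, and no gene passed (adjusted p = 0.343, 0.114 and 0.114). Single cells also weigh in sums this small. The 1 cluster 11 cell of FTY720 replicate 1 held 70.6% of that pool's Jun counts. Over 19 other settings Ccr7 passed in 8 and Jun in 11. Ccr7 did not pass without any 1 of the 4 pools (log2 -1.18 to -0.96, adjusted p = 0.0527 to 0.295), and Jun did not pass without FTY720 replicate 1 (log2 -1.50, adjusted p = 0.295) or NT replicate 1 (log2 -1.50, adjusted p = 0.0815). In red cells alone, Ccr7, Jun, Klf2, S1pr1 and Il7r all passed, at -1.37, -2.01, -1.47, -1.56 and -2.07. No within-well value exists for this class, since RT+FTY720 held 0 and 2 such cells.

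**Figure D3:**
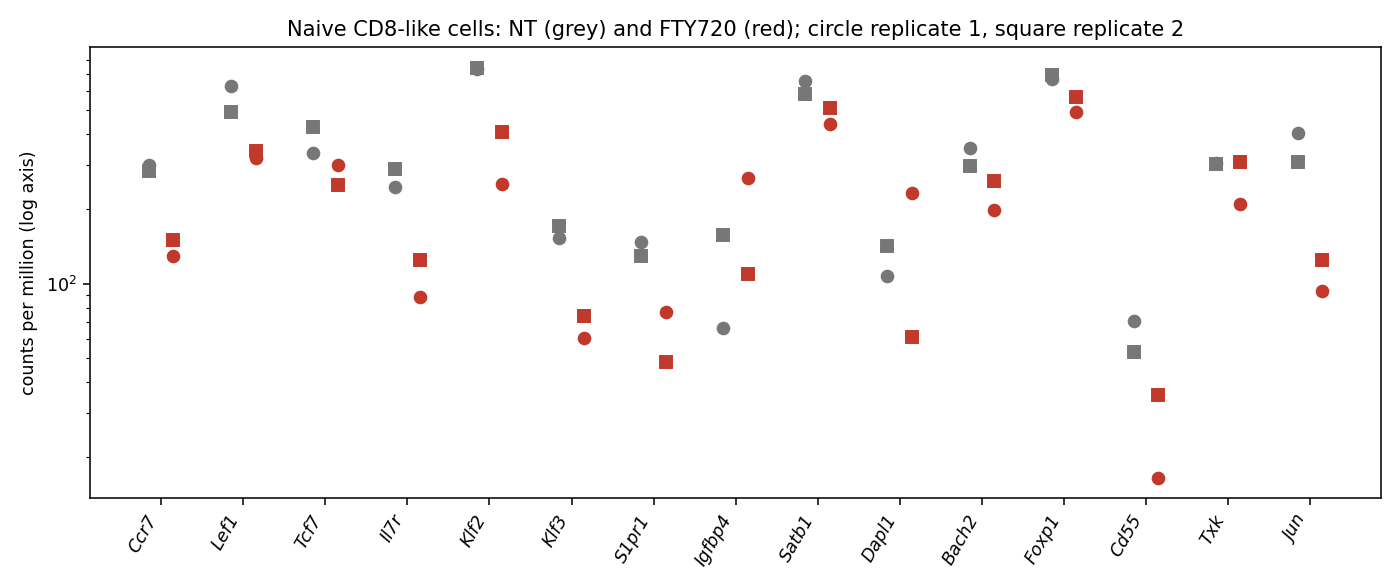
Level in naive CD8-like cells (CPM, log axis) of the measured naive and node-homing genes and of Jun, in the NT pools (grey) and FTY720 pools (red); circles are replicate 1 and squares replicate 2. Ccr7, Klf2, Il7r and Jun are lower in both FTY720 pools, and Igfbp4 and Dapl1 overlap.

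Of the 4 genes that were higher, Hmgn2, which encodes a nucleosome-binding protein, rose from 146 and 152 CPM in NT to 379.7 and 331 in FTY720, by 1.25 ± 0.17 (log2, SE, adjusted p = 0.0205). One cell held 42.03% and 44.6% of its counts in the FTY720 pools. Cell cycle genes, of both replication and mitosis, lay the same way. Of 14 measured none passed, and 6 were higher at an unadjusted p below 0.05, against 8.62% of all genes in either direction. Of the 14, 8 had both FTY720 pools above NT, against 19.1% of all genes. Naive CD8-like cells held more UMIs in both FTY720 pools, with means of 42234 and 33634 per cell against 26517 and 25994 in NT and medians of 31176 and 26483 against 24364 and 25592, and 1 of the 9 cells of FTY720 replicate 1 carried 2 or more beta chains. The part of these in the results was not tested, though without cells of 2 or more beta chains Hmgn2 differed by 1.26 (adjusted p = 0.0245). Pcna, the sliding clamp of DNA polymerase, was 421 and 308 CPM against 170 and 197 (log2 0.98 ± 0.20, adjusted p = 0.0716). Of the 25 measured interferon-stimulated genes, none passed, 6 were lower and none higher at an unadjusted p below 0.05, and 12 lay below both NT pools, against 21.8% of all genes.

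The other genes that rose split the pools by well. Every pool of wells 2 and 4 was a treated day 3 pool, so well and treatment at day 3 cannot be told apart in this split. 5730419F03Rik, Hdac9 and Gm19951 rose by 2.29 ± 0.31, 2.19 ± 0.36 and 1.57 ± 0.26 in naive CD8-like cells (adjusted p = 0.0205, 0.0388 and 0.0388). In all T cells, 5730419F03Rik was at 550 to 1004 CPM in all 6 pools of wells 2 and 4 and at 102 to 190.1 in all 6 of wells 1 and 3. Within wells, RT+FTY720 minus RT, it differed by -0.08 ± 0.39, and RT minus NT, across wells, differed by 2.38. Hdac9, a histone deacetylase gene, was at 41.0 to 102 CPM against 8.24 to 14.3, with -0.03 ± 0.44 within wells, and Gm19951 at 844 to 4779 against 229 to 445, with -0.63 ± 0.57. Over all T cells, 154 of 11247 genes (1.37%) lay higher in every pool of wells 2 and 4 and 106 (0.942%) lower. Of the 499 genes higher in FTY720 at an unadjusted p below 0.05, 94 were among the 154.

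**Figure D4:**
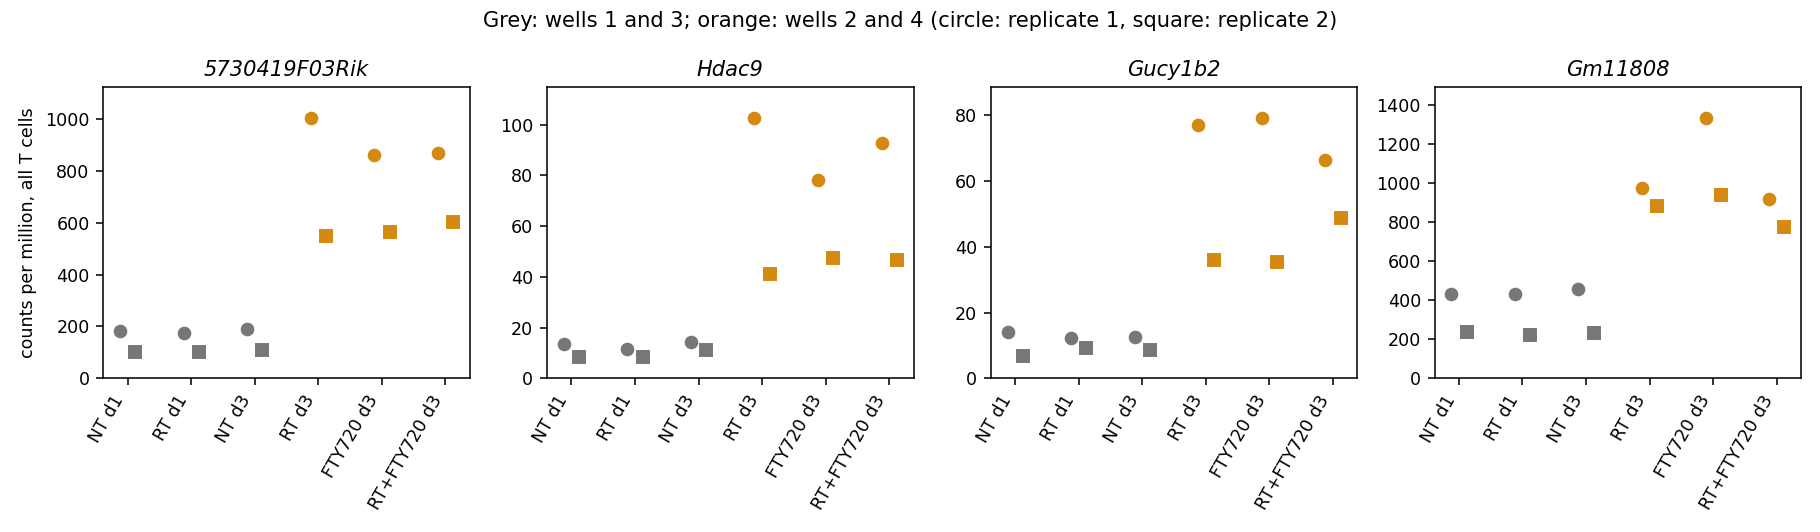
Level in all T cells (CPM) of 4 genes in each of the 12 pools, with pools of wells 1 and 3 in grey and of wells 2 and 4 in orange; circles are replicate 1 and squares replicate 2. For 5730419F03Rik the grey pools lie at 102 to 190.1 and the orange pools, FTY720 included, at 550 to 1004.

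In all T cells together no gene of 11247 passed (0% in each direction), with 800 (7.11%) at an unadjusted p below 0.05 in edgeR and 19 called by DESeq2. Tuba1b (0.98 ± 0.17), 5730419F03Rik (2.26 ± 0.40) and Ung (1.25 ± 0.23) had the smallest p among higher genes, and Jun (-0.69 ± 0.10), Amn1 (-1.13 ± 0.23) and Usp48 (-0.51 ± 0.11) among lower ones, with adjusted p of 0.291 to 0.329. Of the 14 naive and node-homing genes, 8 lay below both NT pools and none above, against 19.9% and 19.2% of all genes. None of the 11 measured genes of S1P signalling passed. S1pr1 was 62.2 and 62.3 CPM in FTY720 against 71.5 and 80.3 in NT (log2 -0.29 ± 0.21), S1pr4 was 31.6 and 40.3 against 52.5 and 44.9 (-0.38 ± 0.21), and Klf2 differed by -0.51 ± 0.26. Cd69, which draws S1PR1 off the cell surface, was 449 and 474 against 322 and 413 (0.33 ± 0.13, adjusted p = 0.655). Within wells S1pr1 and Klf2 were also lower, at -1.14 and -1.38 (adjusted p = 0.148 and 0.145), and Ccr7 fell by 1.60 on the log2 scale (adjusted p = 0.0485), against -0.50 ± 0.22 in FTY720 minus NT. Sums over all T cells move with composition as well as with expression. RT+FTY720 held 0 cluster 11 cells of 122 and 2 naive CD8-like cells, against 11 of each among 159 cells in RT. The part of composition in these values was not tested.

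The remaining markers followed for comparison did not pass in all T cells either. Differences were -0.41 for Tcf7, -0.35 for Lef1 and -0.29 for Il7r. For receptors and regulators of activated cells they were -0.20 for Cd44, 0.18 for Cxcr3, -0.10 for Il2rb and 0.62 for Eomes. For regulatory T cell genes they were 0.41 for Foxp3 and 0.63 for Ccr8. For effector genes they were 0.24 for Gzmb, -0.05 for Gzmk and -1.03 for Ifng. For genes of chronic stimulation and residence they were -0.40 for Pdcd1, 0.35 for Tox, -0.33 for Cxcr6 and 0.57 for Itgae, and for the proliferation marker Mki67 0.31. Ccr7, Tcf7, Cd44, Cxcr3, Il2rb, Gzmb, Gzmk, Tox, Cxcr6 and Mki67 overlapped between the groups.

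Within the CD8-like class the clusters were unequally filled. Cluster 0 (led by Styk1, Klrh1 and Cd244a) was 31.6% and 18.5% of the class in FTY720 against 35.9% and 35.5% in NT, and cluster 1 (led by Gzmk, Ccl5 and Ifitm10) was 36.8% and 37.0% against 22.1% and 28.6%. Cluster 14 (led by Ifi204, Ifi211 and Tnip3) was 5.26% and 9.26% against 2.76% and 1.91%. For each of these clusters the FTY720 pools lay on one side of the NT pools, and the part of this mix in the gene values was not tested. In CD8-like cells no gene of 10336 passed (0% in each direction), with 640 (6.19%) at an unadjusted p below 0.05 in edgeR and 8 called by DESeq2. The lowest p-values belonged to genes found in few cells of NT. Gzmc, a granzyme of strongly stimulated killer cells, was 0 and 2.40 CPM in FTY720 (3 counts in all) against 154 and 61.2 in NT (884 counts), with an adjusted p of 0.112. One cell held 37.6% and 36.1% of the NT counts, and in red cells alone the difference was 0.64. Spp1, which encodes the secreted protein osteopontin, had 4 counts against 635 (adjusted p = 0.153), with 1 cell holding 85.2% of them in NT replicate 2. Il2, the gene of interleukin 2, was 0 and 4.79 CPM against 146 and 114, with 7 of 145 and 22 of 262 NT cells having any count and 1 cell holding 91.8% and 52.7% of them. Firre was the third such gene (2 counts against 95), and 5730419F03Rik, Rnaset2b and Polr2l led the higher ones.

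Ifng and Ccl4 were lower, and Gzmb and Ccl5 higher, in both FTY720 pools of CD8-like cells, and none of the 4 passed. Ifng, the gene of interferon gamma, was 699.8 and 597 CPM against 1682 and 748 (log2 -0.91 ± 0.36). One cell held 27.1% of the counts in NT replicate 1, and without that pool the difference was -0.21. Ccl4, a chemokine of activated T cells, was 1271 and 1592 against 3123 and 1849 (-0.79 ± 0.32). Gzmb differed by 0.36 ± 0.18 and Ccl5 by 0.60 ± 0.17. Of 20 measured cytotoxic genes none passed, and 5 were lower and 1 higher at an unadjusted p below 0.05, against 6.19% of all genes in either direction. Their median was -0.11 beside -0.00131 for all genes. Within wells the values lay the other way for Ifng (1.04) and Ccl4, which rose by 2.40 ± 0.33. Of 26 measured interferon-stimulated genes none passed and 7 lay above both NT pools, against 17.4% of all genes, with a median of 0.51. Ccr7 was 16.9 and 14.4 CPM against 39.6 and 64.5 (log2 -1.80 ± 0.57, adjusted p = 0.725).

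**Figure D5:**
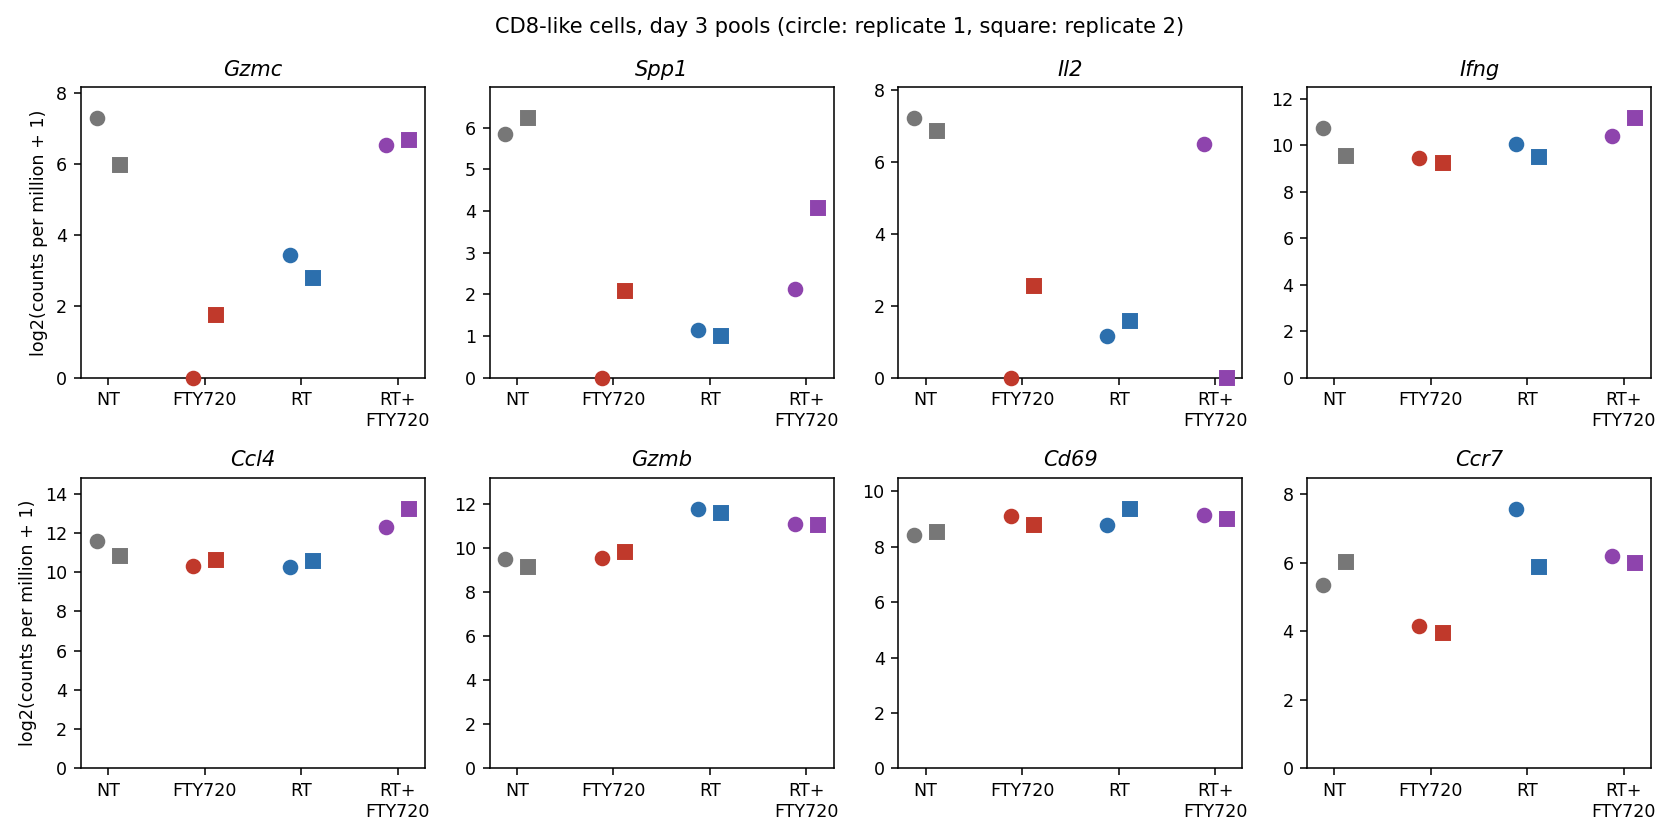
Level in CD8-like cells, as log2(CPM + 1), of 8 genes in each day 3 pool by condition; circles are replicate 1 and squares replicate 2. Gzmc, Spp1 and Il2 are at or near 0 in FTY720 and higher in NT, where few cells hold their counts, while Ifng and Ccl4 are lower in FTY720 than in NT and higher in RT+FTY720 than in RT.

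In Treg-like cells (8 and 23 in FTY720) no gene of 8285 passed (0% in each direction), with 314 (3.79%) at an unadjusted p below 0.05 in edgeR and 3 called by DESeq2. Ccr8, a receptor of tumour Tregs, was 277 and 366 CPM against 195 and 228 (log2 0.64 ± 0.26, adjusted p = 1.00). Areg, an epithelial growth factor made by tissue Tregs, was 495 and 517 against 237 and 93.7 (1.66 ± 0.42, adjusted p = 0.654). Ccr7 was 302 and 114 against 19.5 and 35.7 (2.62 ± 0.60, adjusted p = 0.509), but 1 cell held 91.7% and 77.4% of the FTY720 counts. Cell cycle genes lay lower without passing: of 21 measured none passed, 8 had an unadjusted p below 0.05, and 15 lay below both NT pools, against 20.2% of all genes. Ube2c, which acts in mitotic exit, had 0 counts in FTY720 and 100 in NT, so it was at least 6.94-fold lower against a floor of 3 counts over the FTY720 group. Cells of the cycling cluster 12 held 95.5% and 69.2% of the NT counts.

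In CD4 conventional-like cells replicate 1 of FTY720 had 3 cells and was left out, so the comparison rests on the 13 cells of replicate 2. There 6 of 8406 genes were higher (0.0714%) and none lower (0%), all 6 of them genes of histones and tubulin, while 7.1% had an unadjusted p below 0.05. With 1 pool on a side, 38.3% of genes lay above and 41.3% below both NT pools. H4c4 was 864 CPM against 133 and 131 (log2 2.71 ± 0.23, adjusted p = 0.000139). Tuba1b rose by 2.32 ± 0.30, H1f3 by 2.80 ± 0.44, H1f5 by 4.13 ± 0.65, H2ac24 by 5.84 ± 0.93 and H2ac8 by 6.73 ± 1.00. One cell, of the cycling cluster 12, held 77.9% of the H4c4 counts, 99.4% of H2ac8 and 70.6% of Tuba1b, and no gene passed without the mixed clusters.

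T cell receptor sharing overlapped between the groups. A random pair of cells from 1 pool shared a beta chain CDR3 in 0.758% and 0.202% of pairs in FTY720 and in 0.746% and 0.125% in NT (difference 0.0442 points, exact permutation p = 0.667). Of red cells with a beta chain, 0 of 20 and 0 of 52 in FTY720 and 1 of 111 and 4 of 291 in NT shared it with a green cell of their pool. Green cells of the other replicate were not counted here. FTY720 pools held 4 and 7 groups of at least 2 cells with the same beta CDR3, against 29 and 49 in NT, and none against 1 and 4 spanned both colours. With the alpha chain also required, these were 2 and 7 against 25 and 48. Some NT groups recurred between replicates in opposite colours by the matrix names. The largest was in 14 red cells of replicate 1 and 6 green cells of replicate 2. Others were in 12 red and 7 green cells, and in 3 green and 9 red cells. No cell of another condition carried these sequences. The remaining groups in both replicates were of opposite colour or held both colours. The part of shared tumours and of the colour names was not tested. The largest such FTY720 group and the only one among naive CD8-like cells are shown by their beta CDR3 as deposited, all of it in lower case since no part is singled out:
3 red CD8-like cells, replicate 2: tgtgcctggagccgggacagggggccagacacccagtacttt
2 red naive CD8-like cells, replicate 1: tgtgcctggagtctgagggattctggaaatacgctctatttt
The 3 cells of the first also shared their alpha CDR3. The 2 naive CD8-like cells of the second had different alpha CDR3s, so they are not 1 clone by both chains. The first beta CDR3 was also found in 6 cells elsewhere in the series and the second in none.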

How the data were processed

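Single T cells were measured in 4 wells of 10x Genomics GEM-X 5' chemistry with hashtag and T cell receptor libraries. The authors deposited filtered matrices of UMI counts made with Cell Ranger 8.0.1 on mm39, per the submitters' processing notes, and tables of receptor contigs. Cells passed the hashtag, gene and mitochondrial thresholds given in the report, which kept 2740 of 2816 barcodes. No doublet caller was run, and 90 cells (3.28%) with 2 or more beta chains were kept. Cells were clustered with scanpy 1.11.5 and leidenalg 0.10.2 (2000 variable genes, 30 components, 15 neighbours, resolution 1) into 16 clusters, which were named from marker lists. The handling of mixed clusters was settled after seeing them: their cells were given a class by each cell's own counts of CD8, Cd4, Foxp3 and Il2ra, which left 10 cells unassigned.

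Counts were summed per condition and replicate over both colours (at least 5 cells a sum) and tested with edgeR 4.0.16's quasi-likelihood test in R 4.3.3, with TMM scaling, filterByExpr and Benjamini-Hochberg adjustment at 0.05, all pools with enough cells sharing 1 estimate of the spread (12 pools, but 9 in naive CD8-like and 11 in CD4 conventional-like cells). A log2 difference is FTY720 minus NT. DESeq2 1.42.0 and HTODemux (Seurat 5.3.0) were alternatives. Shares were tested by exact two-sided permutation over pools. On simulated CD8-like counts with 200 changed genes, the test recovered 18 of 18 4-fold and 14 of 17 2-fold changes among well-expressed genes, with 12 false calls. Recovery among the less expressed changed genes is not given. The simulation held no difference between wells, so it cannot show how the test performs across wells.

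Genes were named if they passed with non-overlapping pools (up to 10 in each direction), as passing list members, or as followed markers. Where fewer than 3 passed in a direction, the 3 lowest p-values with non-overlapping pools were also picked. Not all of these are given in the text, among them Scart1, Klf3 and Gimap3 in naive CD8-like cells. Cluster 11, cluster 2, Ccl4, Ccl5, Il2, Pcna, Areg, Igfbp4, Dapl1 and the cells' single-cell shares were chosen after their values were seen. Members and lists were chosen with earlier results of these data known. Receptor-locus genes are not named, and 1 followed marker is not reported here and was left out of the list counts. Replicate numbers do not pair samples.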

Additional observations from a re-analysis of the deposited data

Results flagged for a closer look

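In 9 cases the difference FTY720 made without radiation (FTY720 minus NT, across wells) differed from the one it made with radiation (RT+FTY720 minus RT, within wells) by a direct test of the difference in edgeR's quasi-likelihood model. Values below are the second minus the first on the log2 scale. Since one side lies across wells and the other within them, radiation and well cannot be told apart in these differences.

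In CD8-like cells 7 of 10336 genes passed. Gzmc differed by 9.50 ± 1.06 (adjusted p = 0.0113), with 0 and 2.40 CPM in FTY720, 154 and 61.2 in NT, 91.5 and 101 in RT+FTY720 and 9.78 and 5.99 in RT. Ccl4 differed by 3.19 ± 0.46 (adjusted p = 0.0301), Sema6d by 3.10 ± 0.44 (adjusted p = 0.0301) and Itga1, an integrin subunit that binds collagen, by 1.57 ± 0.24 (adjusted p = 0.0459). For Sema6d, FTY720 minus NT was -0.10 and RT+FTY720 minus RT was 3.00.

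The other 3 were mitochondrially encoded: mt-Cytb at -1.15, mt-Nd4l at -1.01 and mt-Nd1 at -0.93. mt-Cytb was 1608 and 1514 CPM in FTY720, 1347 and 1268 in NT, 1339 and 1244 in RT, and 663 and 722 in RT+FTY720, so the low pools were those of RT+FTY720. Median mitochondrial shares per cell were 1.07% and 0.912% in RT+FTY720, 1.15% and 1.15% in RT, 1.74% and 1.61% in FTY720 and 1.59% and 1.64% in NT.

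In CD4 conventional-like cells, with 1 FTY720 pool, Tmem176b differed by -6.54 and H4c4 by -2.78. Of the H4c4 counts in that pool, 77.9% came from 1 cell.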

How the results depend on the processing

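Of the share differences, in percentage points, CD8-like cells turned to -0.115 under a stricter cell filter, -0.945 without the mixed clusters and -3.50 in red cells, naive CD8-like cells to -6.35 and cluster 2 to -5.12 in green cells, and Treg-like cells to -1.65 with HTODemux. Leaving out each pool in turn moved CD8-like cells from -3.73 to 5.94, naive CD8-like cells from -4.26 to 7.17, naive cells among red cells from -3.51 to 15.0, cluster 2 from -1.75 to 7.11 and receptor pair sharing from -0.266 to 0.355. The shares of CD4 conventional-like cells, naive CD4-like cells and cluster 11 kept their sign without each pool, but without FTY720 replicate 1 the first moved from -4.54 to -2.08 and the second from -1.12 to -0.63, and without FTY720 replicate 2 the first moved to -7.00. With HTODemux cluster 11 moved from -2.80 to -5.46, and to -11.3 from -3.35 among red cells. Among red cells cluster 11 was -1.97 without FTY720 replicate 2. The number of FTY720 cells, 39 and 103, limits every value.

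Counts of called genes moved with the setting. In all T cells (0 called) they were 19 with DESeq2, 264 with no filter on low counts, 4 with the 4 compared pools alone, 1 in red cells and 0 to 1 without each pool. In CD8-like cells (0 called) they were 8, 184, 5, 1 and 0 to 2 in the same order, and 3 with the 8 day 3 pools. In naive CD8-like cells (7 called) they were 18 with DESeq2, 131 with no filter, 2 with 4 pools, 0 with at least 10 cells a sum, 4 with HTODemux, 0 without the mixed clusters, 3 and 2 at Leiden resolution 0.6 and 1.5, 29 in red cells and 0 to 18 without each pool. In Treg-like cells (0 called) they were 3 with DESeq2, 72 with no filter, 3 with 4 pools and 1 in green cells. In CD4 conventional-like cells (6 called) they were 116 with no filter, 11 with 8 pools, 228 with 4 pools, 11 with HTODemux, 0 without the mixed clusters and 1 without either NT pool. The difference of FTY720 effects (9 called) gave 896 with no filter and 1 to 30 without each pool. The cause was not tested.

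With the replicate number as a block, counts were 23 in all T cells, 8 in CD8-like, 48 in naive CD8-like, 4 in Treg-like and 14 in CD4 conventional-like cells, and 31 for the difference of effects. The samples share only a number: deviations of same-numbered pools correlated across genes at 0.0295 in all T cells, 0.123 in CD8-like, 0.0765 in naive CD8-like and 0.0356 in Treg-like cells, and genes are not independent replicates.

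Signs of named genes, none of which had passed except H2ac8, turned as follows. With HTODemux, log2 differences turned to Cd44 0.0056, Il2rb 0.0074 in all T cells, and Lef1 -0.048, Foxp3 -2.78, Gzmk -0.37 in CD8-like cells, and Il2rb 0.10, Tox 0.14 in naive CD8-like cells, and S1pr1 -0.61, Ifng 0.86 in Treg-like cells, and S1pr1 0.051, Il2rb 0.053, Ccr8 -0.048, Gzmk 0.63 in CD4 conventional-like cells. In green cells alone, log2 differences turned to Cd44 0.024, Gzmk 0.46, Mki67 -0.74 in all T cells, and Gzmb -0.080, Mki67 -1.86 in CD8-like cells, and S1pr1 -1.07, Klf2 -0.53, Cd69 -0.25, Lef1 -0.40, Il7r -0.56, Cxcr3 -0.10, Ifng 0.87, Tox -0.40, Cxcr6 0.85 in Treg-like cells, and Il7r -1.38 in CD4 conventional-like cells. Without the mixed clusters, log2 differences turned to Gzmk 0.082 in all T cells, and Il7r 0.052, Eomes -0.54 in CD8-like cells, and Cd44 -0.041, Tox 0.032, Itgae 0.019 in naive CD8-like cells, and H2ac8 -4.58, Mki67 -0.39 in CD4 conventional-like cells. Without cells of 2 or more beta chains, log2 differences turned to Mki67 -0.48 in all T cells, and Gzmk -0.12, Mki67 -0.96 in CD8-like cells, and Ifng 0.19 in naive CD8-like cells. In red cells alone, log2 differences turned to Gzmc 0.64, S1pr1 -0.076, S1pr4 0.039, Lef1 -0.63, Il2rb 0.049, Eomes -0.18, Gzmk -0.18 in CD8-like cells, and Ifng 0.36 in naive CD8-like cells, and S1pr1 -0.67, Klf2 -0.020, Il2rb -0.26, Itgae -0.017 in Treg-like cells. At Leiden resolution 1.5, log2 differences turned to Tcf7 0.13, Gzmk -0.0061 in CD8-like cells. With no filter on low counts, log2 differences turned to Gzmk -0.045 in CD8-like cells, and Cd44 -0.039 in naive CD8-like cells, and S1pr1 -0.024, Gzmb -0.0046 in Treg-like cells. With the 4 compared pools alone, log2 differences turned to Gzmk -0.0064 in CD8-like cells. With the replicate block, log2 differences turned to Gzmk -0.015 in CD8-like cells, and Pdcd1 -0.035 in naive CD8-like cells, and Ccr8 -0.20 in CD4 conventional-like cells. With at least 10 cells a sum, log2 differences turned to Il2rb 0.021, Ifng 0.15, Pdcd1 -3.28 in naive CD8-like cells, and S1pr1 -0.64, Klf2 -0.087, Lef1 -0.12, Ifng 0.47, Tox -0.017 in Treg-like cells. With DESeq2, log2 differences turned to Tcf7 0.14 in Treg-like cells.

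Leaving out each pool in turn gave log2 differences that crossed 0 for these genes. In all T cells these ranges were Cxcr3 -0.077 to 0.32, Gzmb -0.27 to 0.57, Gzmk -0.50 to 0.52, Il2rb -0.21 to 0.011, Mki67 -0.72 to 0.74, Tox -0.31 to 0.83. In CD8-like cells these ranges were Cxcr3 -0.12 to 0.41, Eomes -1.82 to 0.72, Gzmk -0.37 to 0.45, Il7r -0.35 to 0.072, Klf2 -0.17 to 0.74, Lef1 -0.35 to 0.31, Mki67 -1.40 to 0.98, S1pr1 -0.13 to 0.70, Tcf7 -1.43 to 0.31, Tox -0.43 to 1.02. In naive CD8-like cells these ranges were Cd44 -0.22 to 0.20, Cd69 -0.42 to 0.46, Gzmb -0.89 to 0.81, Ifng -0.99 to 0.18, Il2rb -0.26 to 0.021, Itgae -1.18 to 0.47, Pdcd1 -3.14 to 3.02, Tox -0.44 to 0.44. In Treg-like cells these ranges were Cd44 -0.37 to 0.51, Cxcr3 -0.028 to 0.17, Gzmb -0.52 to 0.42, Ifng -9.17 to 0.47, Klf2 -0.087 to 0.47, Lef1 -0.17 to 0.63, S1pr1 -0.64 to 0.97, Tcf7 -6.18 to 1.60, Tox -0.017 to 0.51. In CD4 conventional-like cells these ranges were Ccr8 -0.088 to 0.76.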
